A study of Rattus norvegicus with 238 samples.

Results

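Genes of the cell cycle and of mitosis were described in the medial prefrontal cortex of rats from birth to adulthood. The members were a list of 42 gene symbols, taken by name from the authors' comparison tables and matched by identifier to the count tables. Of these, 40 were found among the 32545 genes counted, of which 21570 carry a symbol. Ccnd2 and Ccnb2 were not among the listed symbols and were not analysed here. By role, the matched members were 4 regulators of G1 and of entry into S phase, 9 genes of replication origin licensing, 4 of DNA synthesis, 7 regulators of G2 and mitosis, 12 of the spindle and kinetochore, 2 of anaphase and 2 abundant chromosome proteins.

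The study sequenced RNA from bulk tissue of male and female Sprague-Dawley rats, an outbred strain, in 238 libraries. Rats came from pregnancies with fetal growth restriction (FR) or from control pregnancies fed ad libitum (AdLib), and were taken as newborns (P0), as juveniles (P21) or as adults (P90). Each received saline or insulin by a peripheral route, 30 min before the tissue was collected. This made 24 groups by age, sex, prenatal condition and injection, 22 with 10 libraries and 2 with 9. How the growth restriction was brought about is not given in the labels used here. Each library name begins with a stem that up to 6 libraries of an age share at P0, and no stem occurs in both prenatal conditions, so FR and AdLib were also compared against the spread between stems. The labels do not explain the stem. All samples are labelled as medial prefrontal cortex, but the library names read PFC at P0 and mPFC at P21 and in adults, so a difference in dissection and age cannot be told apart.

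A dividing cell commits to a round of division in G1, when D and E type cyclins release E2F transcription factors from the retinoblastoma family. Licensing factors then load the MCM helicase onto replication origins, DNA is copied in S phase, and cyclin-dependent kinase 1 drives mitosis, in which kinetochores attach chromosomes to the spindle until the anaphase-promoting complex starts their separation. In rodents, cortical neurons are mostly born before birth, while glial cells and their precursors go on dividing afterwards. Transcripts of S phase genes are widely known to depend on E2F sites in their promoters, and those of mitotic genes on a cell cycle homology region (CHR), often near CCAAT boxes.

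Promoters are shown for 7 members, 3 of origin licensing and 4 of mitosis, classes that fell after birth in the counts. All 7 carry E2F or CHR letters in the 120 bases shown. Other members carry neither there, among them Mcm3, Mcm6, Gmnn and Cdt1 of licensing and Bub1b, Ndc80 and Nuf2 of mitosis. The 7 sequences are therefore not typical of their classes. The sequences are the 120 bases before the annotated start in RefSeq's rat assembly GRCr8, written 5′ to 3′ on the strand of the gene. Capitals mark E2F letters (TTTCCCGC, TTTCGCGC, TTTGGCGC or TTTGCCGC), CHR letters (TTTGAA or TTCGAA) and CCAAT, each searched on both strands, and neighbouring matches may overlap. The licensing genes were Mcm5 (chr19:13488693-13488812 on the plus strand), Mcm7 (chr12:22163179-22163298 on the minus strand) and Mcm2 (chr4:122918095-122918214 on the minus strand). The mitotic genes were Cdk1 (chr20:19265173-19265292 on the plus strand), Cdc20 (chr5:137255800-137255919 on the minus strand), Top2a (chr10:84473094-84473213 on the minus strand) and Mki67 (chr1:199952594-199952713 on the minus strand).
Mcm5: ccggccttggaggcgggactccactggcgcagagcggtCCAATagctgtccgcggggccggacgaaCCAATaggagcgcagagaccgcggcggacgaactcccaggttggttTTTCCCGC
Mcm7: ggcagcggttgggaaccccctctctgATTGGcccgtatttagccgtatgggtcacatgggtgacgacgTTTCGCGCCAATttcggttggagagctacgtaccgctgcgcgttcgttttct
Mcm2: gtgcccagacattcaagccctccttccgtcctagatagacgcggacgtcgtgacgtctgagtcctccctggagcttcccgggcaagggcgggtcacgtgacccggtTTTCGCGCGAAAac
Cdk1: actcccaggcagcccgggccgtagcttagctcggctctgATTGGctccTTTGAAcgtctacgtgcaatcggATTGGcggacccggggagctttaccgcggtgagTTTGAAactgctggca
Cdc20: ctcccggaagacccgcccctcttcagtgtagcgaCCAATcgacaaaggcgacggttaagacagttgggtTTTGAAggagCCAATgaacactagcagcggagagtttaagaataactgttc
Top2a: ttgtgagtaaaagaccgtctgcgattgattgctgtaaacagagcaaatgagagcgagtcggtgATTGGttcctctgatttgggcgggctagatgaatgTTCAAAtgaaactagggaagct
Mki67: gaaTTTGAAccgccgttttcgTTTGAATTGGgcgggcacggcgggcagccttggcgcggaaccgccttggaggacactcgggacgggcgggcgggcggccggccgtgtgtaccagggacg

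In the full promoter window, 250 bases before to 50 after the start, 30 of the 40 members had a sequence. E2F letters were present in 9 of these 30 promoters (30.0%), against 2.25% of all 27457 promoters of the same length. They were in 7 of 7 licensing promoters and in none of the 11 promoters of spindle and kinetochore genes. CHR letters were in 16 of 30 member promoters (53.3%), against 19.5% of all promoters, and were present in 7 of 11 spindle and kinetochore promoters, in both anaphase promoters and in both chromosome protein promoters. The letters also crossed these classes: CHR letters were in 2 of 7 licensing promoters, Mcm2 and Mcm7, and in 2 of 4 G2 and M promoters, and E2F letters were in 1 of 4 G2 and M promoters, that of Cdk1. These matches of Mcm2, Mcm7 and Cdk1 lie outside the 120 bases shown. CCAAT was in 21 of 30 (70.0%), against 37.7% of all. A match describes the letters only and does not show binding.

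Libraries held between 4649382 and 9714184 reads at P0, between 5117722 and 9408550 at P21, and between 5456940 and 13044595 in adulthood. Levels are given as CPM, read counts scaled by library size and TMM factor, which are not adjusted for gene length and are therefore compared only within a gene. At these depths 3 reads in a library corresponded to 0.235 to 0.610 CPM, and lower values are at the limit of detection. In 3 libraries the sex-specific genes went against the label: replicate 6 of the P0 female AdLib saline group, replicate 1 of the adult female FR saline group, and replicate 1 of the adult male FR insulin group. The counts of called members at P0, in adults and between ages were the same without them. Changes between groups are edgeR log2 fold changes with their standard error (SE), and genes count as called where the Benjamini-Hochberg adjusted p, taken over all genes tested, is below 0.05. The labels call the libraries biological samples and say no more on whether each is a separate animal. Ages were deposited as separate tables, so age and table cannot be told apart.

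Between P0 and P21 most of the genes of division fell. Among AdLib saline rats (19 libraries at P0, 20 at P21), 36 of the 40 members were lower at P21 and 4 were higher, and the median member changed by -2.24 on the log2 scale against -0.03 over all genes. At this contrast 88.8% of the 14391 genes tested were called, 45.4% of them as lower and 43.4% as higher, so a count of called members is read against that background. In 31 of 40 members the highest P21 library lay below the lowest P0 library, against 22.5% of all genes. The tissue was sampled in bulk, so fewer dividing cells and less RNA per cell cannot be told apart.

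**Figure D1:**
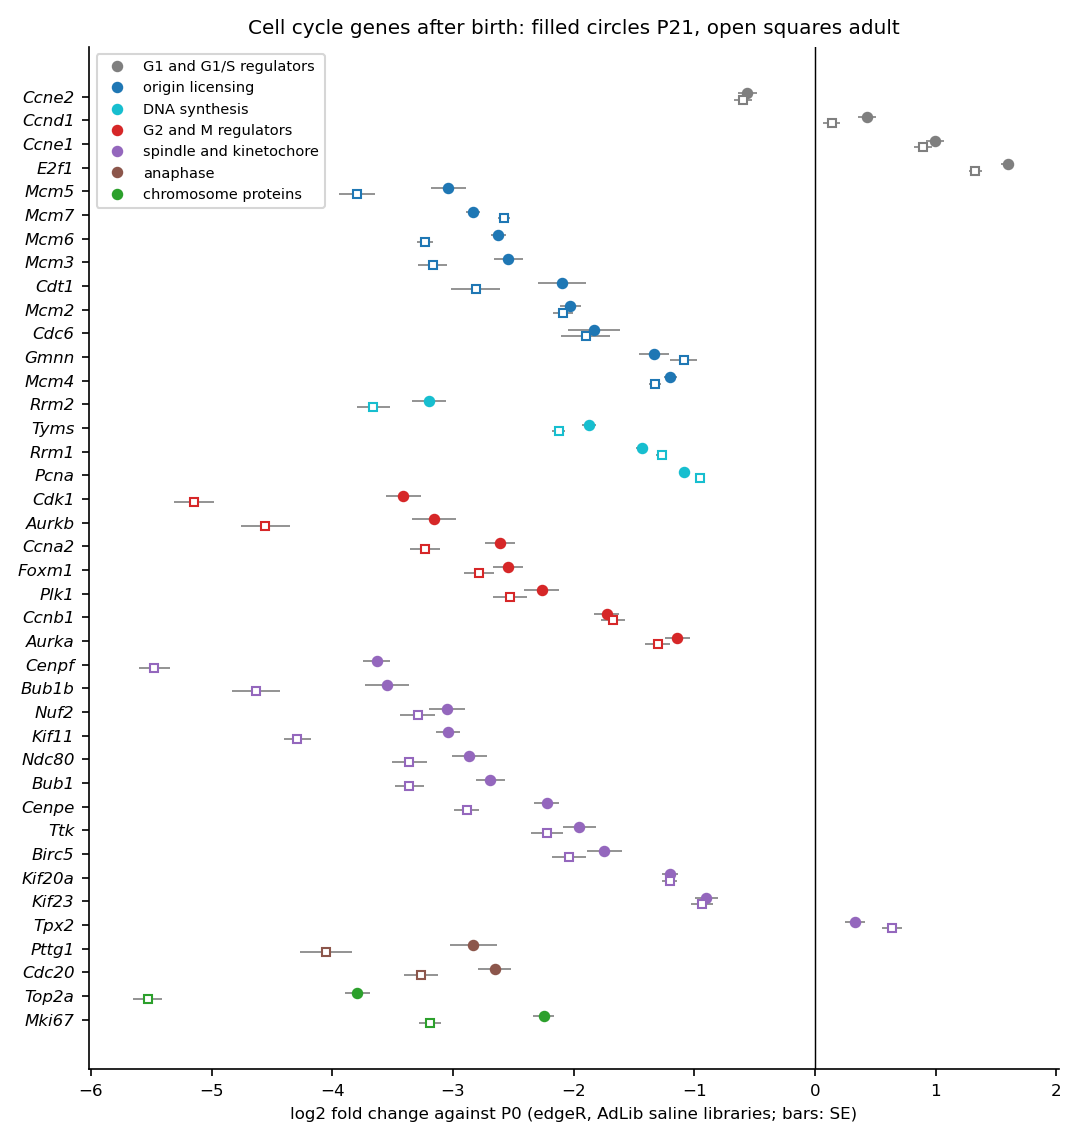
Log2 fold change of the 40 cell cycle genes against P0 in AdLib saline libraries, by role (colour). Filled circles show P21, open squares show adults and bars show SE. All licensing, DNA synthesis, G2 and M, anaphase and chromosome genes lie to the left of 0, and the genes to the right of 0 are E2f1, Ccne1, Ccnd1 and Tpx2.

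The regulators of G1 and of entry into S phase were the exception. E2f1, which encodes an activating E2F factor, was at 20.3, 30.1 and 37.4 CPM at P0 (lowest, median and highest of 19 libraries) and at 73.5, 88.7 and 112 CPM at P21. The ranges did not overlap, and E2f1 rose by 1.60 ± 0.06 (log2, SE; edgeR adjusted p = 1.49e-37). Ccne1, the cyclin E1 gene, was at 5.98, 7.64 and 11.6 CPM at P0 and at 11.9, 16.2 and 22.0 CPM at P21, again without overlap, a rise of 1.00 ± 0.08 (adjusted p = 6.28e-20). Ccnd1, the cyclin D1 gene that couples growth signals to G1, rose by 0.43 ± 0.07, from a median of 26.6 to 37.5 CPM, and its libraries overlapped between ages. The other E type cyclin gene went the opposite way: Ccne2 was at 12.6, 17.8 and 24.3 CPM at P0 and at 8.14, 12.1 and 15.5 CPM at P21, and fell by 0.56 ± 0.08. It overlaps the gene Ints8 in the RefSeq table, and whether the authors counted by strand is not given in the sources used here.

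All 9 licensing genes fell. Mcm5, a subunit of the replicative helicase, fell most, by 3.04 ± 0.14, from 11.2, 15.4 and 22.0 CPM to 0.649, 1.84 and 3.14 CPM, so that its P21 libraries all lay below its P0 libraries. Mcm7 fell by 2.83 ± 0.06, from a median of 101.9 to 14.0 CPM, and the microRNA genes Mir25, Mir93 and Mir106b overlap it. Mcm4, a subunit of the same complex, fell least, by 1.20 ± 0.05, and kept a median of 27.9 CPM at P21, 44.0% of its P0 level. Cdc6 and Cdt1, the loading factors, changed by -1.83 ± 0.22 and -2.10 ± 0.20, and Gmnn, which encodes the inhibitor of Cdt1, fell by 1.33 ± 0.12. The 6 subunits of 1 helicase therefore did not fall in step, since their P21 levels spanned 11.9% (Mcm5) to 44.0% (Mcm4) of P0.

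The 4 genes of DNA synthesis fell as well. Rrm2, the S phase subunit of ribonucleotide reductase, fell by 3.20 ± 0.14, from 6.13, 11.9 and 17.2 CPM to 0.649, 1.15 and 2.54 CPM, a median of 9.62% of P0. Its partner Rrm1, the large subunit, fell by 1.43 ± 0.05 and kept 37.5%. Pcna, the sliding clamp that also serves in DNA repair, fell least, by 1.09 ± 0.04, from 59.0, 68.9 and 80.5 CPM to 26.8, 33.9 and 38.2 CPM. Tyms, which makes thymidylate, fell by 1.88 ± 0.06. In each of these 4 genes the P21 libraries lay below the P0 libraries.

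The 7 regulators of G2 and mitosis fell too, with a median of -2.55 against -2.10 for licensing, a difference between roles that was not tested. Cdk1, the kinase that drives entry into mitosis, was at 7.45, 11.5 and 14.5 CPM at P0 and at 0.437, 1.03 and 1.81 CPM at P21, a fall of 3.41 ± 0.15 (edgeR adjusted p = 1.20e-33). Aurkb, the kinase of the chromosomal passenger complex, fell by 3.16 ± 0.18. Aurka, the centrosomal kinase gene, fell least in this class, by 1.14 ± 0.10, from 6.85, 10.1 and 16.3 CPM to 2.90, 5.48 and 7.00 CPM, with overlap between ages. Aurka overlaps Fam210b in the RefSeq table. The cyclin genes Ccna2 and Ccnb1 changed by -2.61 ± 0.12 and -1.73 ± 0.10, Foxm1, a transcription factor of mitotic genes, by -2.55 ± 0.13, and Plk1, a mitotic kinase, by -2.26 ± 0.14.

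Of the 12 spindle and kinetochore genes, 11 fell and 1 rose. Cenpf, a large protein of the kinetochore corona, fell most, by 3.63 ± 0.11, from 25.0, 42.8 and 69.4 CPM to 1.75, 3.47 and 6.47 CPM. Bub1b, a checkpoint protein that holds back anaphase, fell by 3.55 ± 0.18, and the spindle motor Kif11 changed by -3.04 ± 0.10. Kif11 overlaps Ide, as Rrm2 overlaps Cys1, Plk1 Ern2, Foxm1 Tex52 and Kif20a Cdc23, and Mcm3, Mcm6 and Nuf2 also overlap other annotated genes, so their counts carry the same uncertainty as those of Ccne2. Kif23, a motor of the central spindle, fell least, by 0.90 ± 0.09, and its libraries overlapped between ages. Tpx2, a spindle assembly factor that activates Aurora A, rose instead: it was at 10.8, 15.2 and 22.2 CPM at P0 and at 14.4, 19.9 and 25.1 CPM at P21, with overlap, a rise of 0.33 ± 0.08 (edgeR adjusted p = 0.00024). The rise of Tpx2 was 0.17 and not called in FR saline libraries, and the gene overlaps the uncharacterized gene LOC120102102.

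Both anaphase genes and both chromosome proteins fell. Cdc20, the activator of the anaphase-promoting complex, changed by -2.66 ± 0.14 and Pttg1, which encodes securin, by -2.83 ± 0.20. Top2a, the topoisomerase that untangles sister chromatids, showed the largest fall of all members, by 3.79 ± 0.10, from 36.8, 73.6 and 111 CPM to 4.18, 4.75 and 10.8 CPM. Mki67, the proliferation antigen Ki-67, fell by 2.25 ± 0.09, from 32.9, 56.6 and 87.7 CPM to 9.62, 11.0 and 22.8 CPM. Neither gene had overlapping libraries, yet Mki67 kept 19.5% of its P0 median while Top2a kept 6.45%.

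**Figure D2:**
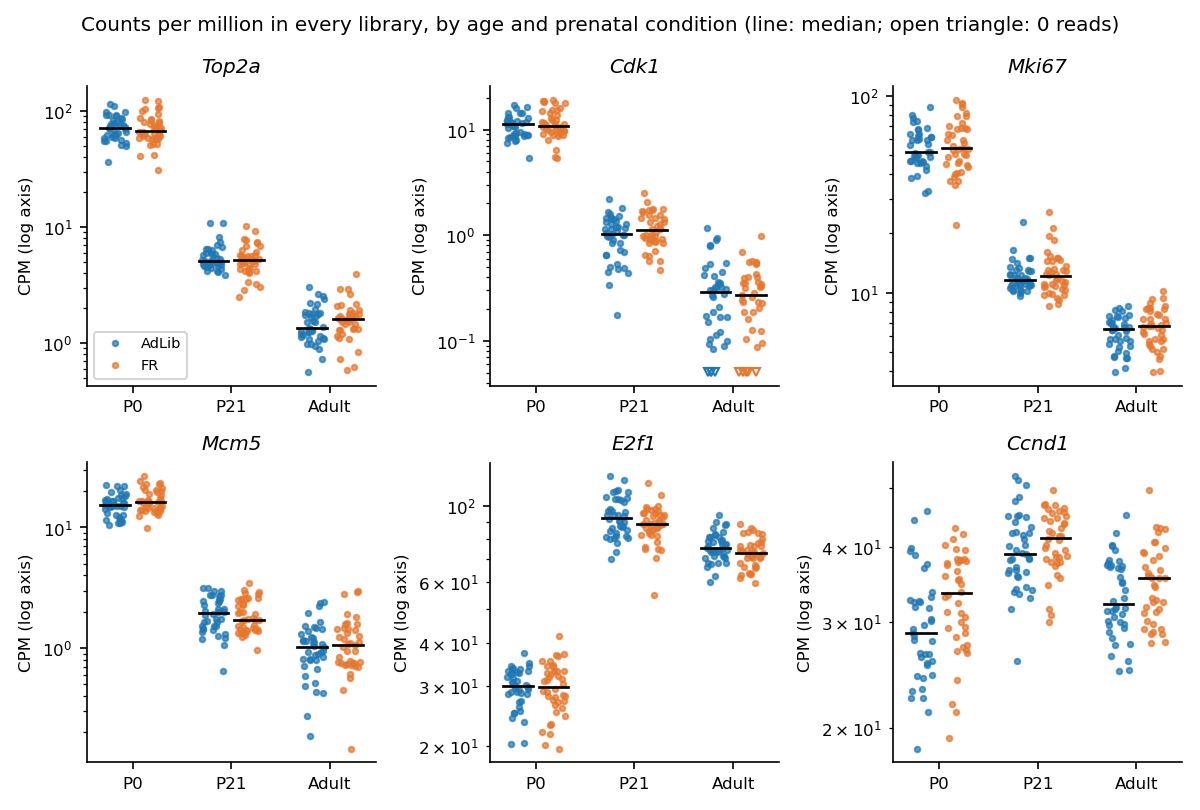
CPM of 6 members in each of the 238 libraries, on a log axis, by age and prenatal condition (AdLib blue, FR orange). Lines mark medians and open triangles mark libraries with 0 reads. Top2a, Cdk1, Mki67 and Mcm5 step down with age, E2f1 steps up after P0, and the AdLib and FR points overlap at every age.

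From P21 to adulthood the fall went on in part of the list, and the largest falls were in mitotic genes. E2f1 and Ccnd1, which had risen by P21, turned down and changed by -0.27 ± 0.05 and -0.29 ± 0.07. In this contrast 62.5% of genes were called, 31.0% as lower and 31.5% as higher. Of the 40 members 22 were lower in adults, 4 were higher and 14 were not called, with a median of -0.28 against 0.01 over all genes. The 22 include Cdt1, Bub1b, Pttg1, Cdk1 and Aurkb, which did not pass the filter on low counts in adults alone. They entered this fit through their higher counts at earlier ages, so these calls rest on adult values at the detection limit. Cenpf changed by a further -1.84 ± 0.16, Top2a by -1.74 ± 0.15 and Kif11 by -1.25 ± 0.13. Cdk1 changed by -1.73 ± 0.23 and Aurkb by -1.40 ± 0.27. The adult medians of Cdk1 and Aurkb, 0.267 and 0.270 CPM, lay within the range of 3 reads, which limits these folds. In 4 members the highest adult library lay below the lowest P21 library, against 3.42% of all genes, namely Cenpf, Kif11, Top2a (0.559, 1.44 and 2.54 CPM in adults) and Mki67 (4.13, 6.22 and 8.53 CPM in adults).

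The 4 members that rose after P21 were 3 S phase genes and Tpx2. Tpx2 rose by 0.31 ± 0.08, Mcm7 by 0.26 ± 0.06, Rrm1 by 0.16 ± 0.05 and Pcna by 0.13 ± 0.04 (edgeR adjusted p = 0.00035, 0.00011, 0.0018 and 0.0052), and their adult libraries overlapped the P21 libraries. The rise of Pcna and of Tpx2 was not called in females alone, nor that of Mcm7 in FR saline libraries. Among the 14 members not called were Ccne1 (-0.10 ± 0.07), Ccne2 (-0.04 ± 0.08), Cdc6 (-0.07 ± 0.25), Mcm2 (-0.06 ± 0.10) and Gmnn (0.24 ± 0.13). The others were Ccnb1, Foxm1, Plk1, Aurka, Ttk, Nuf2, Birc5, Kif20a and Kif23, with values between -0.29 and 0.05. Within licensing the subunits moved apart again: Mcm5 changed by -0.76 ± 0.18, Mcm3 by -0.63 ± 0.15 and Mcm6 by -0.61 ± 0.07, while Mcm7 rose. Between P0 and adulthood, 89.8% of genes were called, 46.3% as lower and 43.5% as higher, and of the members 36 were lower and 3 higher. Ccnd1 was not called over that span, at 0.14 (edgeR adjusted p = 0.0622), and was called as higher with DESeq2.

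Residual levels in adults differed widely between members. As a percentage of the same gene's P0 median in AdLib saline libraries, 7 members were under 5% (Aurkb, Bub1b, Cdk1, Cenpf, Kif11, Pttg1 and Top2a), 6 were between 5% and 10% and 13 between 10% and 25%. A further 8 were between 25% and 50%, Ccne2 and Pcna were at 66.3% and 51.5%, and Ccnd1, Ccne1, E2f1 and Tpx2 were above their P0 level, at 121%, 198%, 247% and 160%. In all, 13 of 40 members were under 10%, against 1.71% of all genes. By role the median residual was 6.47% for the chromosome proteins, 7.40% for the anaphase genes, 11.3% for spindle and kinetochore genes, 13.4% for G2 and M regulators, 16.7% for licensing, 31.7% for DNA synthesis and 159% for G1 regulators.

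The lowest residuals rest on few reads. Over the 20 adult AdLib saline libraries Top2a had 300 reads (1.96% of P0), Kif11 218 (4.92%) and Cenpf 187 (1.98%), and no library was at 0 reads for these genes, with 1 under 3 reads of Kif11. Cdk1 had 57 reads (2.33%), Aurkb 65 (3.39%), Bub1b 68 (3.35%) and Pttg1 41 (4.75%). For these 4, 8 to 15 of the 20 libraries held fewer than 3 reads and 2 to 5 held none, so their adult medians are at the detection limit and their order is not resolved. The adult medians of Cdt1 (0.437 CPM) and Cdc6 (0.515 CPM), and the P21 medians of Cdc6 (0.550 CPM) and Pttg1 (0.529 CPM), also lay within the range of 3 reads, which limits their folds and residual levels.

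Other genes of the same pathways came from lists chosen for this description, and those of mitosis and replication fell throughout. Of 27 further mitosis genes tested, 27 were lower at P21 than at P0 (median -2.32), with Kif2c, a microtubule-depolymerizing kinesin, at -3.31, Ect2 at -3.24 and Kif14 at -3.23. Of 24 further replication genes, 24 were lower (median -1.38), with Gins1, a helicase cofactor, at -3.64, and Gins2 least changed at -0.56. Of 18 other G1 kinase, E2F and DREAM or MuvB genes, 12 were lower and 3 higher. The repressor gene E2f7 changed by -3.20 and Mybl2 by -2.59, while Ccnd3, Lin37 and Lin52 rose by 0.34, 0.18 and 0.18.

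Among 13 inhibitors and pocket proteins tested, 7 fell, 4 rose and 2 were not called at P21, where 45.4% of all genes fell and 43.4% rose. Btg2, an antiproliferative gene, rose by 2.59 ± 0.19, Cdkn1a, which encodes the kinase inhibitor p21, by 1.97 ± 0.13 and Gadd45g, a stress-induced growth arrest gene, by 1.95 ± 0.16. Rbl1, a pocket protein gene, changed by -1.73. From P21 to adulthood 10 of the 24 replication genes rose and 5 fell, and 4 of the 27 mitosis genes rose and 13 fell, where 31.5% of all genes rose and 31.0% fell. The difference between these lists was not tested.

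Markers of cell types that could hold dividing cells also changed between P0 and P21, and their part in the fall of the members was not tested. Of 5 markers of ventral progenitors and interneuron precursors tested, 5 fell. The summed level of all 7 matched markers in AdLib libraries went from 80.4 to 161 CPM at P0 to 25.1 to 39.3 CPM at P21, with Gsx2 and Nkx2-1 at a median of 0. Immature neuron markers fell in 5 of 5, with Dcx at -4.93 and Sox11 at -5.00. Radial glia markers split, with 5 lower (Nes at -2.75, Fabp7 at -1.92), 4 higher and 1 not called, and their summed level went from 622 to 1287 CPM at P0 to 900.2 to 1223 CPM at P21. Astrocyte markers rose in 4 of 5, from 88.5 to 238 CPM to 1135 to 1881 CPM summed, and oligodendrocyte markers in 3 of 4, from 66.3 to 94.3 CPM to 929.7 to 6705 CPM. Oligodendrocyte precursor markers rose in 5 of 5, from 174 to 313 CPM to 290.0 to 414 CPM summed, and microglial markers in 8 of 8, from 28.6 to 77.4 CPM to 235 to 314 CPM. The intermediate progenitor marker Eomes was at a median of 3.36 CPM at P0 and 0 CPM at P21 in AdLib libraries, and Neurog1 was at a median of 0 CPM at both ages.

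At birth no member was called as different between FR and AdLib rats. The comparison averaged both sexes and injections, 40 FR against 39 AdLib libraries, and called 283 of 14318 genes (1.98%), 0.957% as higher and 1.02% as lower in FR. The median member was higher in FR by 0.05 on the log2 scale, against 0.00 over all genes, and 31 of 40 members (77.5%) had a value above 0, against 51.6% of all genes. Members varied together between P0 libraries, with a median pairwise correlation of 0.47 after group means were removed. They are therefore not independent, and this share was not tested. At an unadjusted p below 0.05 there were 6 members of 40, against 16.8% of all genes. DESeq2 called 1 member, Mcm4.

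**Figure D3:**
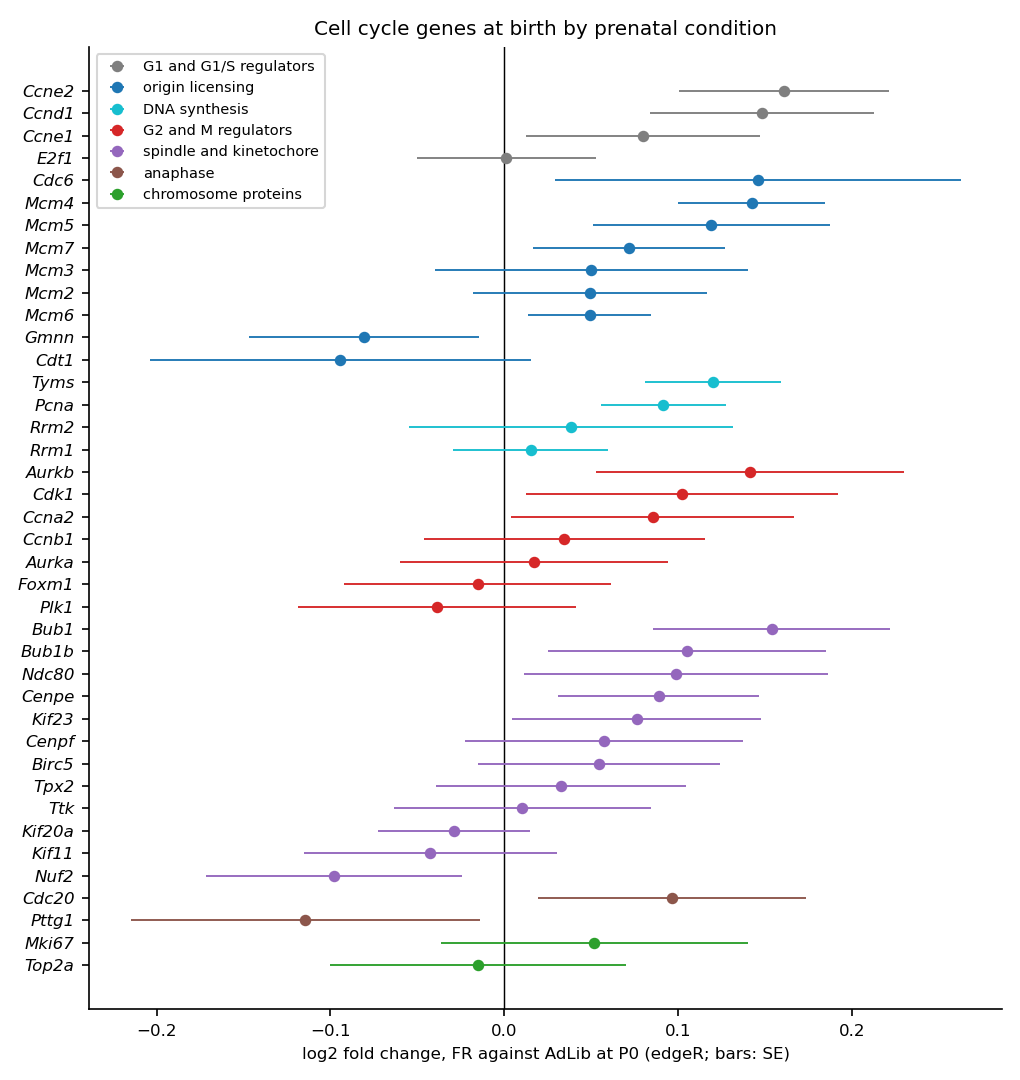
Log2 fold change of each cell cycle gene between FR and AdLib at P0, averaged over sexes and injections, by role (colour), with SE bars. Values lie between -0.11 and 0.16, and 31 of 40 points are to the right of 0.

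The 6 members with the smallest p were all higher in FR, and with stems as a random block their adjusted p lay between 0.634 and 0.898. Mcm4 was at 49.1, 64.2 and 86.4 CPM in AdLib (lowest, median and highest) and at 54.4, 68.7 and 92.2 CPM in FR, a difference of 0.14 ± 0.04 (edgeR adjusted p = 0.0546). The ranges overlapped over most of their length. The adjusted p of Mcm4 was 0.033 with DESeq2 and 0.836 with counts summed per stem, although its size stayed between 0.14 and 0.16 in all 10 alternatives. Tyms was at 27.2, 34.4 and 42.5 CPM in AdLib and at 26.8, 37.3 and 57.5 CPM in FR, a difference of 0.12 ± 0.04 (adjusted p = 0.0833). Ccne2 differed by 0.16 ± 0.06 (adjusted p = 0.138) between 12.6, 17.8 and 24.3 CPM in AdLib and 12.2, 20.0 and 28.8 CPM in FR. Pcna differed by 0.09 ± 0.04 (adjusted p = 0.159), Ccnd1 by 0.15 ± 0.06 (adjusted p = 0.213) and Bub1, a checkpoint kinase of the kinetochore, by 0.15 ± 0.07 (adjusted p = 0.222).

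The reference mitotic genes were not called. Top2a differed by -0.02 ± 0.09 at P0, with 36.8, 70.9 and 115 CPM in AdLib and 31.3, 67.6 and 126 CPM in FR. Mki67 differed by 0.05 ± 0.09 and Cdk1 by 0.10 ± 0.09. In all 3 genes the FR libraries reached both lower and higher than the AdLib libraries.

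Within a sex, saline groups alone gave the same picture. The median member was at 0.07 in males and 0.04 in females at P0, with no member called in either (edgeR and DESeq2, 2 members at an unadjusted p below 0.05 in each, against 7.54% of all genes in males and 2.54% in females). In males 0 genes of 14318 (0%) were called and in females 4 (0.0279%). The difference between the sexes in this effect had a median of 0.02 over members and no member called or at an unadjusted p below 0.05 (4 genes called, 0.0279%). With stems fitted as a random block, the male median was -0.0016 and 20 of 40 members were above 0.

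A few tissue markers were called by condition at P0 in the main fit, and the part of tissue composition in the member values was not tested. Stmn1 and Tubb3, of the 5 immature neuron markers tested, were lower in FR by 0.20 ± 0.04 and 0.19 ± 0.04 (edgeR adjusted p = 0.0101 each). Neither was called with stems as a random block or with counts summed per stem, under which 0 genes were called. The summed level of the 5 markers ran from 10001 to 13804 CPM in AdLib and from 8237 to 12541 CPM in FR. None of the 4 red blood cell markers was called, with 3 at an unadjusted p below 0.05 and a median of -0.28, and their summed level ran from 225 to 1147 CPM in AdLib and from 196 to 918 CPM in FR.

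The fall from P0 to P21 was not called as different between FR and AdLib for any gene in saline libraries (edgeR, 0 of 14893, or 0%). At an unadjusted p below 0.05 there were 4 members and 804 genes, and DESeq2 called 1 gene and 0 members. The 4 were Mcm6 (-0.24 ± 0.09), Tyms (-0.21 ± 0.09), Ttk (-0.40 ± 0.19) and Mcm4 (-0.17 ± 0.08), each with a larger fall in FR and an adjusted p of 0.828 to 0.911.

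At later ages no member was called by prenatal condition. At P21, 6 of 14400 genes (0.0417%) and 0 of the 36 members that passed the filter were called (0.00694% of genes as higher, 0.0347% as lower), with a median member of -0.0039. In adults, 54 of 15168 genes (0.356%) and 0 of 34 members were called (0.264% of genes as higher, 0.0923% as lower), with a median of 0.02. Cdc6, Cdt1, Bub1b and Pttg1 did not pass the filter on low counts at either age, nor did Cdk1 and Aurkb in adults. Bub1 had an unadjusted p below 0.05 at each age, higher in FR by 0.15 ± 0.07 at P0, 0.18 ± 0.08 at P21 and 0.22 ± 0.10 in adults, with edgeR adjusted p of 0.222, 0.639 and 0.376. DESeq2 called 0 members at either age, and 3 members had an unadjusted edgeR p below 0.05 at each, against 7.17% of all genes at P21 and 11.9% in adults. In saline males Bub1 was at -0.10 ± 0.17 at P21 and -0.08 ± 0.20 in adults.

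No member was called for insulin at any age. In 12 comparisons within sex and prenatal condition and in 3 averaged over them, edgeR called 0 members, and between 0 and 4 members had an unadjusted p below 0.05, against 0.866% to 6.46% of all genes. Between 0 and 4 genes of any kind were called in each (0% to 0.0279%). In the authors' deposited tables, 18 comparisons in all, 0 of 40 members had a false discovery rate below 0.05, and the smallest for a member was 0.942.

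Between the sexes at P0 no member was called either (14 of 14318 genes, 0.0978%), and 2 had an unadjusted p below 0.05 by edgeR and by DESeq2, against 5.38% of all genes by edgeR. In this contrast 38 of 40 members (95.0%) were higher in males, against 50.9% of all genes, with a median of 0.06 and a range from -0.03 to 0.20. Members varied together between P0 libraries, so they are not independent, and this share was not tested. Of 4 meningeal and fibroblast markers tested, 4 were higher in males, with a median of 0.87 and none called, and the part of such tissue in the member values was not tested. The median was 0.02 at P21 and 0.04 in adults.

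P0 libraries differed widely in their content of these transcripts. The mean log2 CPM over the 40 members ran from 3.56 to 4.41 in AdLib libraries and from 3.52 to 4.64 in FR libraries, which is a span of 1.80-fold and 2.17-fold. At P21 the span was 1.40-fold over all 80 libraries and in adults 1.36-fold over 79. The prior count of 2 in log2 CPM draws low values together. Part of the members were at the detection limit at these ages, so their spans cannot be set directly against P0. Among the P0 groups the widest was male FR saline, with an SD of 0.35, and the narrowest was female FR insulin, with 0.11. The SD was larger in FR than in AdLib among males (0.35 against 0.11 with saline, 0.28 against 0.18 with insulin) and smaller among females (0.15 against 0.24, and 0.11 against 0.19), a contrast that was not tested.

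**Figure D4:**
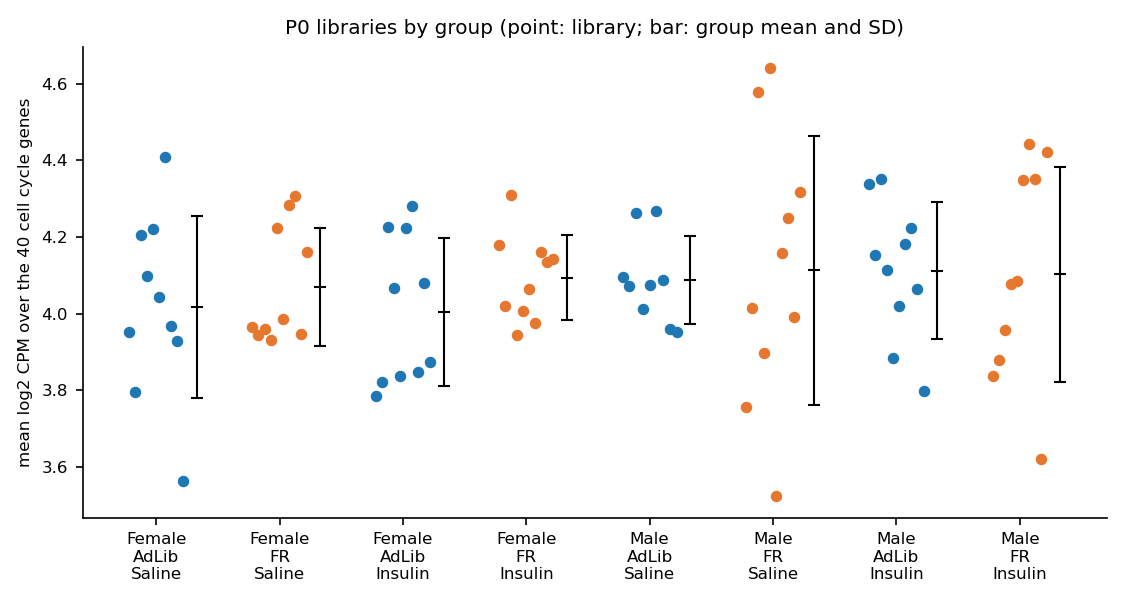
Mean log2 CPM over the 40 cell cycle genes in each of the 79 P0 libraries, by sex, prenatal condition and injection (AdLib blue, FR orange), with the group mean and SD beside the points. The male FR groups run from 3.52 to 4.64 and the male AdLib groups from 3.80 to 4.35, and AdLib and FR groups overlap in both sexes.

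The ends of this range were single libraries of different stems. The lowest was P0 male FR saline replicate 6, with 31.3 CPM of Top2a, 5.33 of Cdk1 and 22.1 of Mki67. The highest was replicate 5 of the same group, with 126 CPM of Top2a, 18.7 of Cdk1 and 95.4 of Mki67. E2f1 was 33.1 CPM in the lowest library and 27.7 CPM in the highest, so it did not follow the mitotic genes. The second lowest library was AdLib, P0 female saline replicate 10, with 36.8 CPM of Top2a. Total counts were 7547613 in the lowest and 6020609 in the highest library.

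Gene by gene, pooled over sexes and injections, most members had a larger spread in FR, as did most genes. The members are not independent of each other. Spread within a sex was not computed for single genes, while the SD of the mean over members was larger in FR among males and smaller among females. The SD of log2 CPM within groups was larger in FR in 36 of 40 members (90%), against 79.8% of all genes, and the median ratio of FR to AdLib SD was 1.22, against 1.20 over all genes. A limma test on absolute deviations from group means called 375 of 14318 genes (2.62%) and 0 of 40 members, with 5 members at an unadjusted p below 0.05 against 19.6% of all genes. Mcm7 had the smallest p, with an SD of 0.19 in AdLib and 0.32 in FR (limma adjusted p = 0.0513). Its levels were 80.4, 102 and 130 CPM in AdLib and 70.4, 110 and 156 CPM in FR. Plk1 followed, with SDs of 0.28 and 0.41 (adjusted p = 0.110), and Ccne1, with 0.23 and 0.33 (adjusted p = 0.207). With deviations taken from group medians, or in saline libraries alone, the same test called 0 genes of any kind, and with a replicate block it called Mcm7 (adjusted p = 0.0349) among 552 genes.

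**Figure D5:**
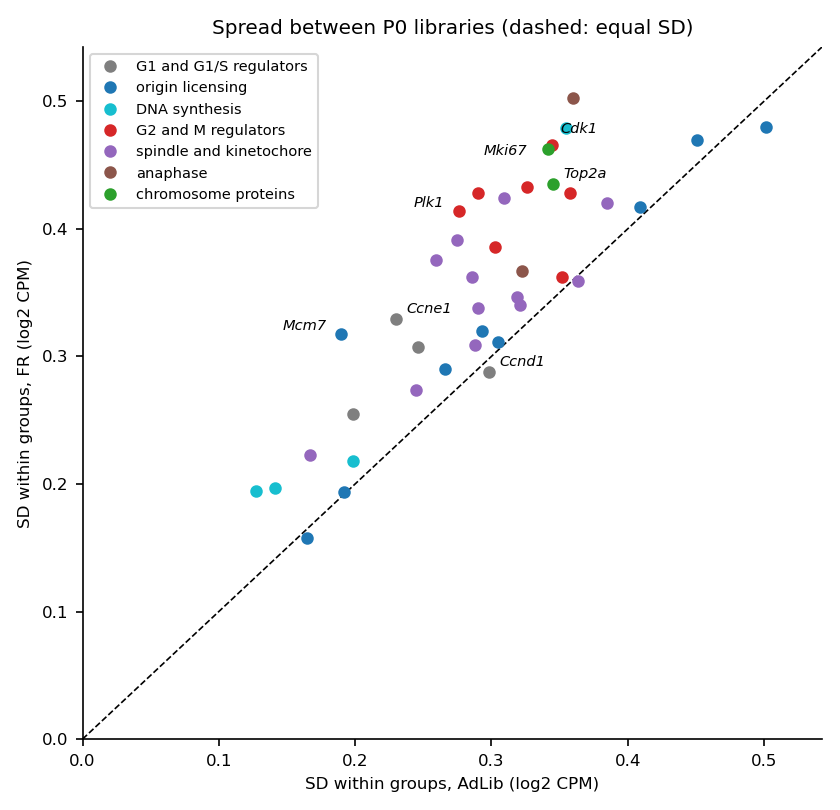
SD of log2 CPM within groups at P0, pooled over sexes and injections, for each cell cycle gene. AdLib is on the x axis and FR on the y axis, by role (colour), with the dashed line at equal SD. Of the 40 points 36 lie above the line, with Mcm7 at 0.19 and 0.32, and Ccnd1, Cdc6, Mcm6 and Bub1b lie below it.

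Stems of the library names were compared as well. Means of the members by stem had an SD of 0.142 over 11 AdLib stems and 0.144 over 10 FR stems. The median range within a stem was 0.204 in AdLib and 0.445 in FR, and these were not tested against each other. AdLib stems held 2 to 4 libraries and FR stems 2 to 6, and a range tends to grow with the number of libraries. The median correlation of libraries of 1 stem in a fit of all P0 genes was 0.228 for the members and 0.316 for all genes.

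Across the 79 P0 libraries, the mitotic members varied together. As a description over libraries that share stems and depth, with group means removed, the median pairwise correlation was 0.60 among the 23 genes of G2, mitosis, spindle, anaphase and chromosomes, 0.40 among the 13 licensing and synthesis genes and 0.11 among the 4 G1 regulators. Top2a had the highest correlation with the mean of the other members, at 0.94, followed by Kif11 at 0.89 and Cdk1 at 0.88. E2f1 was at -0.15, Ccnd1 at 0.02 and Tyms at 0.05. Tyms thus fell with age but had almost no correlation with the mean of the other members between P0 libraries.

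The library means of the members were also set against the log2 of the summed CPM of other lists. Such a sum follows the most abundant genes of its list and is not the same measure as the mean. Their correlation was 0.94 with the further mitosis genes, 0.79 with the further replication genes, 0.79 with the inhibitors and pocket proteins and 0.57 with the other G1, E2F and DREAM or MuvB genes. Among markers it was 0.83 with those of ventral progenitors and interneuron precursors, 0.75 with intermediate progenitors, 0.66 with radial glia, 0.57 with microglia and 0.44 with red blood cells. It was -0.44 with oligodendrocytes, -0.27 with oligodendrocyte precursors, 0.08 with meninges and -0.21 with the total count. These values describe libraries of the same dissections and the part of tissue composition in the spread was not tested.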

How the data were processed

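RNA from rat medial prefrontal cortex was extracted with a Qiagen AllPrep kit, per the labels' protocols. The submitters' processing notes name STAR and Rnor_6.0, and the counting program and annotation are not given in the sources used here. The authors deposited 3 tables of whole-number read counts, 1 per age, with 0 further sample columns. A further 18 tables hold the authors' comparisons and per the file headers give log2 fold changes, log2 CPM, p-values and false discovery rates, and these served for gene symbols and chromosomes and for 1 comparison.

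The test was the robust quasi-likelihood F test of edgeR 4.0.16 (R 4.3.3) on counts, with TMM factors and filterByExpr. All 8 groups of an age shared 1 fit, and ages were compared in 1 fit of AdLib saline libraries with sex as a covariate. SE was derived from the fold change and the F statistic. The spread at P0 was tested with limma 3.58.1 on absolute deviations of log2 CPM (prior count 2). Correlations were computed on log2 CPM after subtracting group means, and for the further lists and markers on the log2 of their summed CPM. No 2 libraries of a group were copies: the lowest chi-square per degree of freedom was 2.28, 2.08 and 3.54 at P0, P21 and adulthood. P-values measure the spread between these libraries, which may share a source. Scripts were tested on simulated data.

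Alternatives were DESeq2 1.42.0, RLE factors, library totals alone, no filter, single sexes, other libraries, the stem as random block or as sums, 2 surrogate variables from sva 3.50.0 and a replicate block. The members, the lists and the tests were chosen with earlier results of these data known. Members given in full were, by rule, the largest and smallest change of each role, those that rose or were not called with age, the 6 smallest p by condition and 3 by spread at P0, and Mki67, Top2a and Cdk1. Library ends, stems and overlapping genes were described after the values were seen. Promoters and overlapping genes come from RefSeq tables of GRCr8. The sums of counts over all libraries of a stem and the AdLib insulin libraries were alternatives chosen after seeing the data.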

Additional observations from a re-analysis of the deposited data

Results flagged for a closer look

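In 120 groups examined, the 24 groups for the mean over the members and the 8 P0 groups for 12 named members, 6 held a library whose gap to its neighbour was large for the range of its group. Chance flags about 1 in 20, so about 6 would be flagged without any cause.

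For the mean log2 CPM over the 40 members, P21 male AdLib saline replicate 1 was highest at 2.47, with the next library at 2.20. For Tyms, P0 female AdLib saline replicate 5 was highest at 41.7 CPM (next 36.8), P0 male FR insulin replicate 6 was highest at 57.5 CPM (next 41.8), and P0 male FR saline replicate 2 was lowest at 26.8 CPM (next 34.6). For Ccnd1, P0 female FR saline replicate 8 was lowest at 24.0 CPM (next 30.6). For Bub1, P0 female AdLib saline replicate 10 was lowest at 9.37 CPM (next 15.8), and this library also had the lowest mean over the members among AdLib libraries at P0.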

How the results depend on the processing

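The counts of members lower (36) and higher (4) at P21 than at P0 stayed within 1.5 times under all 10 alternatives, as did the 22 lower in adults than at P21 (17 to 25). The 4 higher in adults than at P21 were 2 in females alone, and the median of that contrast was -0.39 in AdLib insulin libraries against -0.28.

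Members called between FR and AdLib at P0 went from 0 to 1 with DESeq2, with library totals alone and with 2 surrogate variables, and the member was Mcm4. The count of all genes called there was 283, and 440 with DESeq2, 653 with surrogate variables, 124 with counts summed per stem and group, 96 with no filter, and 0 both with the stem as a random block and with counts summed per stem. By condition in adults, 54 genes were called, and 98 with DESeq2, 102 with surrogate variables, 85 with the replicate block, 31 with counts summed per stem and group, 14 with the random block and 0 with sums per stem. At P21, 6 were called, and 21, 13 and 17 with the first 3 of these, and by sex at P0 14, and 25 with the random block. No other comparison of condition, injection or sex called a member under the alternatives run.

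The replicate numbers did not pair libraries across prenatal conditions: at P0 the median correlation of the same number between conditions was 0.0085. Over all groups it was 0.065 among P0, 0.031 among P21 and 0.012 among adult libraries. At P0 it was -0.0088 for different numbers and 0.21 for libraries of the same stem. Within a condition a number often carries the same stem, as replicate 1 does at P0, so a replicate block partly follows the stem. With the number as a replicate block, 36 members were lower and 4 higher at P21, and 1 member was called between FR and AdLib at P0 (520 genes) and 1, Mcm7, in the spread test (552 genes against 375). The spread test called 0 genes from group medians or in saline libraries, and 258 without the library opposed to its sex label.

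Between adults and P21, 7 members not called changed sign: Ccnb1 to -0.0092 with AdLib insulin libraries and to -0.017 in females alone, Ccne2 to 0.032 with AdLib insulin libraries, Cdc6 to 0.24 in females alone and Mcm2 to 0.13 in males alone. Kif20a was at 0.063 with AdLib insulin libraries, 0.084 with FR saline libraries, 0.092 in females alone, 0.010 with no filter, 0.0043 with DESeq2 and 0.0041 with RLE factors. Kif23 was at 0.12 with FR saline libraries and 0.017 in females alone, and Ttk at 0.0050 with FR saline libraries. The cause of these changes was not tested. A fit of only the groups compared was not run for averaged contrasts. Depth limits the adult values of Cdk1, Aurkb, Bub1b, Pttg1, Cdt1 and Cdc6 and the P21 values of Cdc6 and Pttg1, and the SE of Mki67, Top2a and Cdk1 limits what could be seen between conditions.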

Other observations

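Among the 4 further pathway lists, 2 genes were called between FR and AdLib at P0. Rbl2, which encodes the pocket protein p130 that represses cell cycle genes in resting cells, was at 55.3, 66.4 and 76.8 CPM in AdLib (lowest, median and highest of 39 libraries) and at 59.8, 71.2 and 81.3 CPM in FR, and was higher by 0.10 ± 0.03 (edgeR adjusted p = 0.0317). Cdc7, the kinase that starts replication at licensed origins, was at 15.6, 26.1 and 36.9 CPM in AdLib and at 18.1, 30.7 and 42.3 CPM in FR, higher by 0.21 ± 0.06 (adjusted p = 0.0294). The ranges overlapped in both genes. They were 1 of 13 inhibitors and pocket proteins and 1 of 25 further replication genes tested, with 0 of 28 mitosis genes and 0 of 19 other G1, E2F and DREAM or MuvB genes, which is near the 1.98% of all genes called, and no gene was called once the stem of the library name entered as a random block. In adults Gins2, of the same replication list, was higher in FR by 0.29 ± 0.06 (edgeR adjusted p = 0.0097). It was 1 of 22 genes of that list tested in adults, where 0.356% of all genes were called. The count of all genes called in adults was 54, and 14 with stems as a random block and 0 with counts summed per stem.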
